A study of Mus musculus with 2 samples.

Results

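Mice given minP1, a short immunostimulatory peptide made from the protein HMGN1, were compared with mice not given it, with and without an antibody to PD-L1 in the background. The compared mice were taken by their hashtag labels and are all 14 of the experiment, 8 given the peptide and 6 not. After cells with more than 25% of reads in mitochondrial genes had been removed, 7732 of the 8262 barcodes of the table were used, 4647 from mice given the peptide and 3085 from mice not given it. Reads were summed per mouse, so that the mouse was the replicate, and each value below is the change with minP1 after the antibody had been accounted for.

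Every mouse was a wild-type BALB/c animal carrying a subcutaneous tumour of Colon26, a mouse colon carcinoma line. Control mice (n = 3) received neither agent. The minP1 mice (n = 4) received 0.08 µg of the peptide into the peritoneum on day 9, the PDL1 mice (n = 3) received 200 µg of anti-PD-L1 by the same route on days 4 and 8, and the minP1_PDL1 mice (n = 4) received both. All tumours were taken on day 10, which is the day after the single peptide dose, and leukocytes were sorted by CD45. The labels give no age and name neither a vehicle nor a control antibody. They call the cells intestinal in 1 place, while the tissue is given as the flank tumour.

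HMGN1 binds nucleosomes inside the nucleus and works as an alarmin once it is released from the cell, where it can signal through TLR4, a receptor that works with the coreceptors MD-2 (gene Ly96) and CD14. Signalling from TLR4 runs through NF-kB to inflammatory cytokines and, by a separate branch, to type I interferon, and in dendritic cells it is known to raise costimulatory molecules such as CD80, CD86 and CD40. PD-L1 (gene Cd274) is the ligand of PD-1 (gene Pdcd1), an inhibitory receptor of T cells, and an antibody to it leaves that receptor without this ligand.

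Between 466 and 724 cells per mouse were kept, with 26007834 to 51230461 reads per mouse and a median of 39132.5 reads over 2078 genes per cell. These are reads that were not collapsed to molecules: a nonzero entry had a median of 10 reads, so 1 captured molecule can weigh heavily in a small class. Clusters named by marker genes gave 2326 monocytes and macrophages, 1822 T cells, 1404 NK cells, 586 neutrophils and 515 dendritic cells. The T cells include a cluster of 139 cells led by Il17a and Cd163l1, which tied between T cell and gamma delta T cell markers. Other clusters without a name are in none of these classes and count only in immune cells and all CD45+ cells. Of all kept cells 26.3% had a doublet score over 0.5, among them 74.1% of the larger macrophage cluster and 36.9% of neutrophils. A cluster led by the matrix genes Col1a2, Sparc and Mgp (493 cells) and a cluster of keratin-positive tumour cells (54 cells) were in the sorted fraction. The CD45 gene Ptprc was found in 60.45% of cells of the Col1a2, Sparc and Mgp cluster and in 48.15% of the keratin-positive cluster. A doublet score over 0.5 was found in 11.4% of the former and 96.3% of the latter. No barcode number was shared between mice. The labels speak of separate runs without giving the run of any mouse, so a run effect and a treatment effect cannot be told apart.

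No gene passed an adjusted p of 0.05 for minP1 in any of the 11 classes of cells tested (0 genes, 0% of those tested, by edgeR's quasi-likelihood test with Benjamini-Hochberg adjustment). At an unadjusted p under 0.05 stood 1193 of 18410 genes (6.48%; 599 higher and 594 lower) in all CD45+ cells and 834 of 17319 (4.82%) in immune cells, which leave out the matrix and tumour clusters. The same share was 4.90% of 14848 genes in monocytes and macrophages, 4.20% of 10345 in neutrophils, 4.54% of 11978 in dendritic cells, 4.02% of 12681 in T cells and 4.06% of 11944 in NK cells. In the narrower classes it was 2.66% of 9847 genes in CD8 T cells, 3.71% of 10396 in regulatory T cells, 4.23% of 11869 in monocytes and 4.85% of 14179 in macrophages. DESeq2, run on the same sums, passed 12 genes in all CD45+ cells, 6 in immune cells, 5 in monocytes and macrophages, 6 in neutrophils, 4 in dendritic cells, 0 in T cells (647 at an unadjusted p under 0.05) and 0 in NK cells (608). In the narrower classes DESeq2 passed 1 gene each in CD8 T cells (Mrps26), regulatory T cells (Hes1) and monocytes (Hmox1), and 7 in macrophages.

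The smallest adjusted p of edgeR was 0.0733, for Nap1l3 in macrophages, a gene with few reads that DESeq2 also passed there. In all CD45+ cells it was 0.758, in T cells 0.245 and in neutrophils 0.190. For genes of at least 20 CPM (reads of the gene per 1e6 reads of the class), the 95% interval of the change reached a median of 1.16-fold to either side in all CD45+ cells, 1.21-fold in monocytes and macrophages, 1.91-fold in neutrophils, 1.49-fold in dendritic cells, 1.40-fold in T cells and 1.45-fold in NK cells. These are medians over genes, and single genes had narrower or wider intervals.

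The 2 strata, without antibody (minP1 against Control) and with it (minP1_PDL1 against PDL1), share no mice, and so give separate values of the same contrast. Across genes of at least 20 CPM their log2 changes had a Pearson correlation of 0.188 in all CD45+ cells, where 57.7% of genes had the same sign in both strata. Without the matrix and tumour clusters the correlation was 0.034, and in the other classes it lay between -0.018 and 0.070. Genes are not independent replicates, and these values describe the strata only. A test of whether the effect of minP1 differed between the strata passed 0 genes in all CD45+ cells by edgeR, with 826 at an unadjusted p under 0.05, while DESeq2 passed 11.

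The makeup of the sorted cells was compared first. None of 23 shares of clusters and classes differed between mice given and not given minP1 by an exact permutation test within strata, two-sided (adjusted p 0.939 for each). The cluster led by Col1a2, Sparc and Mgp, whose genes encode collagen and other matrix proteins, had the smallest unadjusted p. It made up 13.02, 7.42 and 10.8% of cells in the Control mice and 6.21, 3.02, 2.49 and 4.36% in the minP1 mice, which did not overlap. With antibody it made up 13.5, 2.58 and 6.15% in the PDL1 mice and 10.9, 4.55, 2.67 and 4.19% in the minP1_PDL1 mice, which overlapped. Over both strata the share was 4.09 percentage points lower with minP1 (SE 1.95, 95% interval -8.40 to 0.205, exact permutation p = 0.0645). Leaving out 1 mouse moved this p as low as 0.0129 (without minP1_PDL1 replicate 1) and as high as 0.156 (without Control replicate 1), before adjustment.

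CD8 T cells, the killers of antigen-bearing cells, made up 3.34% ± 1.59 (SD, n = 8) of cells with minP1 and 4.17% ± 0.70 (SD, n = 6) without it, a difference of -0.834 points (SE 0.727, exact permutation p = 0.269). Regulatory T cells, which restrain other T cells, made up 8.20% with minP1 and 8.47% without it, a difference of -0.279 points (exact permutation p = 0.766). The number of CD8 T cells over that of regulatory T cells, as a log2 ratio, was -1.37 ± 0.60 (SD, n = 8) with minP1 and -1.002 ± 0.36 (SD, n = 6) without it, a difference of -0.36 with a 95% interval of -1.005 to 0.28 (exact permutation p = 0.230). Without antibody the ratio differed by -0.26 and with antibody by -0.47. When T cells were instead called CD8 or regulatory by having reads of Cd8a or of Foxp3 but not both, the ratio differed by 0.18 without antibody, -0.46 with it and -0.14 over both (exact permutation p = 0.547), so its sign without antibody depended on how the cells were called.

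Neutrophils made up 2.89, 3.40 and 4.99% of cells in the Control mice and 4.43, 6.20, 8.01 and 6.08% in the minP1 mice. With antibody they made up 8.70, 11.8 and 11.3% in the PDL1 mice and 12.6, 7.02, 10.1 and 10.2% in the minP1_PDL1 mice. The difference with minP1 was 2.42 points without antibody and -0.64 points with it, and 0.889 points over both (SE 1.00, exact permutation p = 0.392). Monocytes and macrophages together differed by 2.03 points (95% interval -4.67 to 8.73), all T cells by -0.393 points (-5.29 to 4.51) and all dendritic cells by 0.0396 points (-1.05 to 1.13). NK cells made up 18.3% with minP1 and 17.8% without it. Cells kept per mouse numbered 581 ± 73.7 (SD, n = 8) with minP1 and 514 ± 66.5 (SD, n = 6) without it (exact permutation p = 0.0547, adjusted 0.164), and the median reads per cell averaged 37271 and 43115 (exact permutation p = 0.152, adjusted 0.228). The part of these depth differences in the gene values was not tested.

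**Figure D1:**
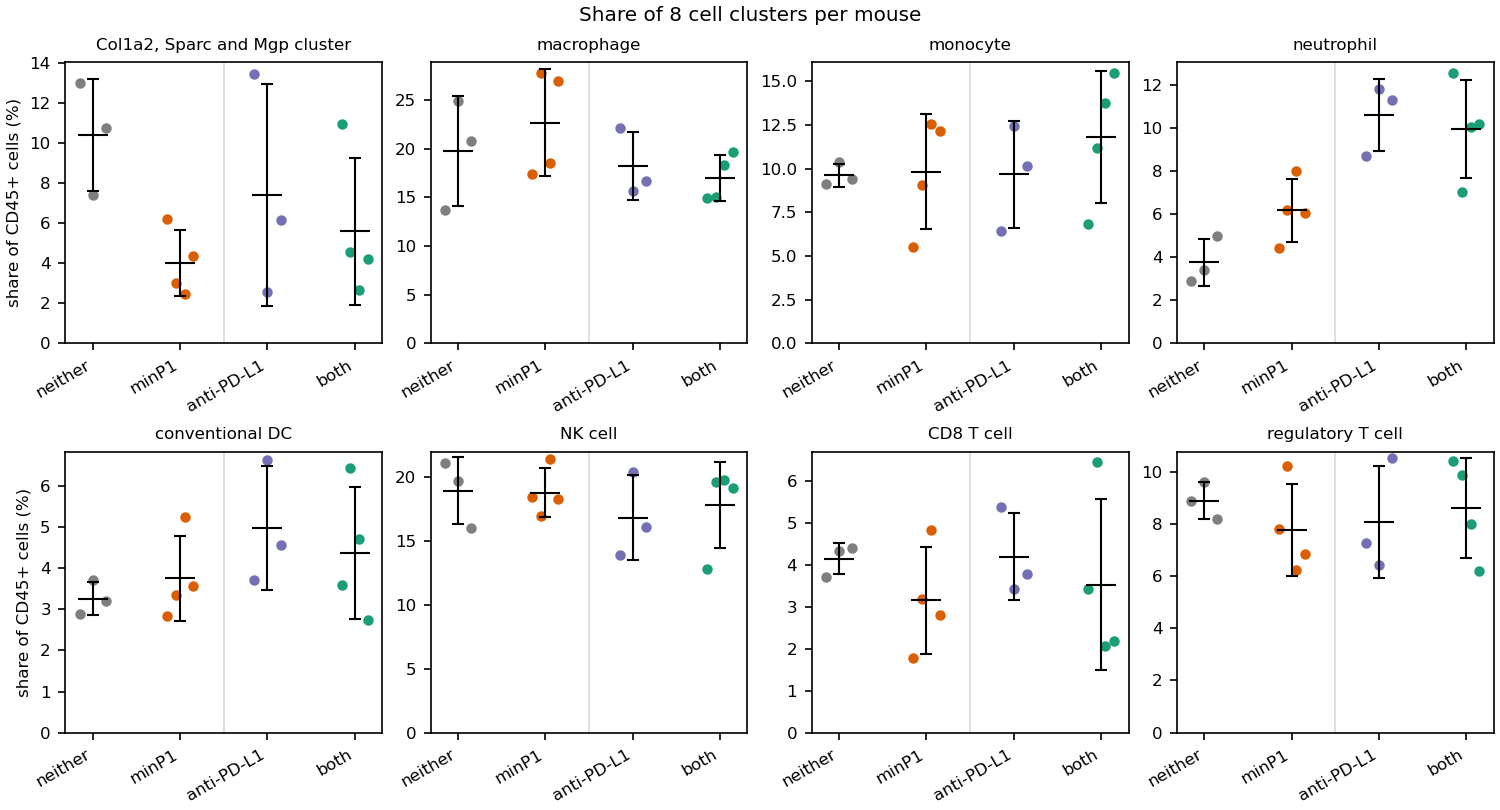
Share of CD45+ cells (%) in 8 clusters for each mouse, by group, with the mean ± SD of each group as a bar. In the Col1a2, Sparc and Mgp cluster the 4 minP1 mice lie at 2.49 to 6.21% and the 3 Control mice at 7.42 to 13.02%, while the 2 groups given antibody overlap.

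The receptor that HMGN1 is known to use, and its coreceptors, were then read in the cells that carry them. Values are CPM of the class, scaled by TMM, and changes are log2 values of minP1 against none. Tlr4 in monocytes and macrophages differed by 0.07 (SE 0.13, 95% interval -0.20 to 0.34), and Cd14 by 0.07 (SE 0.06). Ly96 lay 0.21 lower on the same scale. None of the 3 passed the test by edgeR. In neutrophils Tlr4 ran from 175 to 415 CPM (median 244) with minP1 and from 87.3 to 231 CPM (median 132) without it, a log2 change of 0.84 (SE 0.26, unadjusted edgeR p under 0.05 but not passing adjustment). That difference was 1.47 without antibody and 0.25 with it, and it was 0.24 when cells with a high mitochondrial share were kept. Wherever such cells were kept, here and below, all cells were also clustered anew, so the members of each class changed as well. In dendritic cells Tlr4 was uneven, 1.92 without antibody and -0.54 with it. The top cell of a mouse held a median of 46.5% of that mouse's Tlr4 reads there. Transcripts of Hmgn1 itself, which are those of the mouse and not of the injected peptide, differed by -0.11 (SE 0.14) in immune cells.

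A list of TLR4 pathway genes, chosen with earlier results of these data known, had 12 of 18 members above 0 in immune cells with a median change of 0.08, beside 50.4% and 0.00 for all genes tested. In monocytes and macrophages it had 10 of 18 (median 0.02), and in dendritic cells 9 of 16 (median 0.03). Genes of NF-kB feedback and inflammatory cytokines had 10 of 24 members above 0 in monocytes and macrophages, with a median of -0.04 that was -0.22 without antibody and 0.25 with it. Of that pathway's products, Il1b, the inflammatory cytokine interleukin-1 beta, differed by 0.06 and Tnf, tumour necrosis factor, by 0.08 in monocytes and macrophages. Cd274, which encodes PD-L1, differed by 0.02 in that class and by 0.09 (SE 0.14) in immune cells, and the T cell-attracting chemokine Cxcl9 by 0.05 in monocytes and macrophages. In monocytes and macrophages the receptor genes and these products had 95% intervals that included 0.

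Costimulatory genes in dendritic cells gave intervals that were wide. Cd86 differed by -0.02 (SE 0.26), Cd40 by -0.12 (SE 0.34) and Ccr7, the receptor that guides mature dendritic cells to lymph nodes, by -0.41 (SE 0.33). Cd40 differed by 0.49 and Ccr7 by 0.013 when each cell carried the same weight. Cd80 ran from 16.3 to 72.8 CPM (median 23.8) with minP1 and from 30.1 to 73.7 CPM (median 42.5) without it, a change of -0.66 that did not pass and that was -0.19 without cells of high doublet score. Il12b, a subunit of interleukin-12, differed by 0.22 (SE 0.93). Its reads came from few cells: the top cell of a mouse held a median of 87.5% of that mouse's Il12b reads, and 1 mouse had none. Of 18 maturation genes tested in dendritic cells, 6 lay above 0, with a median of -0.09 beside 50.9% of all genes. Genes of cross-presentation and MHC class I, by which antigen is shown to CD8 T cells, had 9 of 16 above 0 (median 0.03).

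Among the genes with the smallest p in dendritic cells were genes of the cell cycle, none of which passed adjustment by edgeR. Cdk4, a kinase that drives entry into S phase, ran from 81.7 to 157 CPM (median 113) with minP1 and from 56.9 to 92.8 CPM (median 63.5) without it. The groups did not overlap within either stratum, and the change was 0.81 (SE 0.17, edgeR adjusted p 0.781; DESeq2 adjusted p 0.035). Detection went the other way: a smaller share of dendritic cells had Cdk4 reads with minP1 than without it. The part of a mouse's Cdk4 reads held by its top cell had a median of 19.5% and reached 53.3%. Spint2, an inhibitor of serine proteases, ran from 72.8 to 119 CPM (median 99.4) and from 32.1 to 71.6 CPM (median 57.0), a change of 0.86, with all 8 mice above the other 6. Genes picked for a small p tend to part the mice in this way. How many of all genes tested do so was not counted. A lack of overlap is therefore no added support for Cdk4, Spint2 or the genes below. Mcm6, part of the helicase that opens DNA for replication, ran from 44.8 to 87.0 CPM (median 62.4) and from 14.6 to 45.5 CPM (median 26.8), a change of 1.19. The top cell of a mouse held a median of 34.9% and up to 85.7% of that mouse's Mcm6 reads. Rrm1, which makes deoxynucleotides, differed by 0.82. Of 30 cell cycle genes 22 lay above 0 in dendritic cells, 5 of them at an unadjusted p under 0.05, with a median change of 0.38 (0.48 without antibody and 0.24 with it). That median was 0.24 at a Leiden resolution of 0.5, 0.86 with high-mitochondrial cells kept and 0.73 without cells of high doublet score. A cluster of 89 cells led by Nusap1 and Depdc1a is in none of the lineage classes. Cell cycle values of those classes leave its cells out, and the part of this was not tested.

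Among dendritic cell genes that lay lower, Cxcl2, a chemokine for neutrophils, ran from 823 to 1360 CPM (median 922) with minP1 and from 968 to 1911 CPM (median 1536) without it, a change of -0.55 that was -1.14 without cells of high doublet score. Pilra, an inhibitory receptor of myeloid cells, differed by -1.18 and Lgals3, which encodes galectin-3, by -0.29. The antigen-presenting genes H2-Ab1 and Cd74 differed by -0.04 and 0.02. Marker lists of other cells beside these values were uneven: monocyte markers summed to 3470 to 4835 CPM with minP1 and 3732 to 5550 CPM without it, with 2 of 8 above 0, and markers of plasmacytoid dendritic cells to 1246 to 3242 and 1427 to 2607 CPM, with 7 of 9 above 0. Their part in the dendritic cell values was not tested.

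Monocytes and macrophages lay the other way for cell cycle genes. In them 2 of 30 cell cycle genes lay above 0 and 8 stood below it at an unadjusted p under 0.05, with a median of -0.27 (-0.14 without antibody and -0.41 with it), beside 49.9% above 0 among all genes of the class. Mki67, the marker of dividing cells, ran from 50.1 to 96.5 CPM (median 77.1) with minP1 and from 77.0 to 129 CPM (median 107) without it, a change of -0.53 that did not pass. Its change was -0.18 without antibody and -0.88 with it, and -1.415 without cells of high doublet score, when the list's median was -0.98. With 1 mouse left out that median came as close to 0 as -0.12. In the macrophage clusters alone, Cenpa, the centromere histone, ran from 113 to 154 CPM (median 134) and from 151 to 193 CPM (median 170), a change of -0.38 that was -0.185 with each cell weighted equally. Over all immune cells 2 of 30 cell cycle genes lay above 0 (median -0.17), while NK cells had 18 of 29 above 0 (median 0.07). The immune cells include the Nusap1 and Depdc1a cluster, which the lineage classes leave out. Whether the classes differed in this was not tested.

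Selenoh, a nuclear selenoprotein, lay lower in monocytes and macrophages, at 79.6 to 100 CPM (median 91.6) with minP1 and 106 to 133 CPM (median 112) without it. The 8 and the 6 mice did not overlap, and the change was -0.35 (SE 0.08, edgeR adjusted p 0.976). In macrophages alone Selenoh ran from 94.1 to 111 CPM (median 106) and from 126 to 178 CPM (median 138), a change of -0.45 (SE 0.09, edgeR adjusted p 0.514; DESeq2 adjusted p 0.005). Wbp1l, which encodes a small membrane protein, ran from 30.5 to 39.8 CPM (median 35.9) in monocytes and macrophages with minP1 and from 13.9 to 34.0 CPM (median 22.8) without it, a change of 0.60 (SE 0.16), larger without antibody (0.91) than with it (0.30). Slc48a1, a heme transporter, differed by 0.60 in the same class and by 0.72 in macrophages. Snhg5, a host gene of small nucleolar RNAs, differed by -0.38 and Smchd1, a chromatin silencer, by -0.40. Without cells of high doublet score the changes in monocytes and macrophages were 0.32 for Wbp1l and -0.10 for Snhg5, and that of Selenoh in macrophages was -0.78. Wbp1l differed by 0.37 and Slc48a1 by 0.35 in that class with each cell weighted equally.

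Slpi, a secreted inhibitor of leukocyte proteases, had the largest change among the named macrophage genes. It ran from 27.1 to 89.7 CPM (median 68.8) with minP1 and from 11.8 to 47.7 CPM (median 22.2) without it, a change of 1.18 (SE 0.24, edgeR adjusted p 0.525; DESeq2 adjusted p 0.002). Hddc2, a nucleotide hydrolase, ran from 23.7 to 34.5 CPM (median 31.3) and from 13.8 to 24.2 CPM (median 17.9), a change of 0.75 (DESeq2 adjusted p 0.012). The change was 0.74 for Slpi with high-mitochondrial cells kept and 2.25 for Hddc2 without cells of high doublet score. In monocytes, Hmox1, the heme-degrading enzyme heme oxygenase-1, ran from 126 to 436 CPM (median 249) and from 69.0 to 210 CPM (median 96.2). Its change of 1.10 (SE 0.23, edgeR adjusted p 0.767; DESeq2 adjusted p 0.005) was 1.01 without antibody and 1.19 with it. Hmox1 also leads a cluster of 142 cells, the Hmox1 and Cxcl3 cluster, which is not in the monocyte class. The part of this exclusion in the monocyte value was not tested. Among monocytes the top cell of a mouse held a median of 22.7% and up to 55.9% of that mouse's Hmox1 reads. Golga7, of the palmitoylation machinery, differed by 0.63 and Ndufa8, a subunit of respiratory complex I, by 0.67. Cd83, an activation marker, ran from 254 to 366 CPM (median 319) and from 312.4 to 492 CPM (median 457) in monocytes, a change of -0.44.

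Arg1, which encodes the arginine-consuming enzyme arginase-1 of tumour macrophages, was uneven between mice. It is also among the leading genes of the Hmox1 and Cxcl3 cluster, which is not in the class of monocytes and macrophages. In monocytes and macrophages it ran from 584 to 3815 CPM (median 2018) with minP1 and from 1047 to 1463 CPM (median 1370) without it. Of the 8 mice 7 lay above the highest of the other 6 and 1 lay below the lowest, and the change was 0.64 (SE 0.26), or 0.39 with each cell weighted equally. MHC class II genes, which present antigen to CD4 T cells, had 12 of 13 members above 0 in that class, 1 of them at an unadjusted p under 0.05, with a median of 0.19. Within that list Cd74 differed by 0.22 and H2-Ab1 by 0.20. Macrophage markers had 9 of 12 above 0 there, with summed levels of 3771 to 9080 CPM with minP1 and 4820 to 7325 CPM without it, and their part in these values was not tested.

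Neutrophils, with 14 to 70 cells per mouse, had immediate early and granule genes above 0, and none passed the test by edgeR. Egr1, an immediate early transcription factor, ran from 749 to 1629 CPM (median 1033) with minP1 and from 337 to 753 CPM (median 519) without it. Its change was 1.02 (SE 0.19, edgeR adjusted p 0.190), 1.09 without antibody and 0.94 with it, and DESeq2 passed it. The change was 0.68 with high-mitochondrial cells kept and 0.48 when each cell carried the same weight. Cndp2, a peptidase, ran from 57.0 to 113 CPM (median 75.9) and from 124 to 215 CPM (median 166), without overlap, a change of -1.12 (edgeR adjusted p 0.376). Igf1r, the receptor of insulin-like growth factor, differed by 2.28 (SE 0.42, edgeR adjusted p 0.190), and the top cell of a mouse held a median of 48.8% of that mouse's Igf1r reads.

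The calprotectin genes, which encode the main cytosolic protein pair of neutrophils, lay above 0. S100a9 ran from 7842 to 13160 CPM (median 9016) with minP1 and from 3186 to 10950 CPM (median 5344) without it, a change of 0.60 that was 0.90 without antibody and 0.32 with it. S100a8 ran from 4390 to 8990 CPM (median 6052) and from 2114 to 5726 CPM (median 3672), a change of 0.71, and it passed the test by edgeR only when Control replicate 3 was left out. When high-mitochondrial cells were kept and all cells clustered anew, the changes were 0.16 for S100a9 and 0.31 for S100a8. That clustering gave 521 neutrophils in place of 586. The kept cells and the new clusters cannot be told apart in such values. The list of granule genes also holds both calprotectin genes and genes of neutrophil chemotaxis, of which Cxcl1 and Cxcl2 count in the NF-kB list below as well. It had 11 of 12 genes above 0 (3 at an unadjusted p under 0.05, median 0.46), beside 49.9% of all genes tested in neutrophils. Its median was 0.13 with high-mitochondrial cells kept.

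Inflammatory lists lay above 0 in neutrophils, with larger medians in the stratum without antibody. The NF-kB and cytokine genes had 19 of 22 above 0 (4 at an unadjusted p under 0.05, median 0.31), with medians of 0.64 without antibody and 0.00 with it. TLR4 pathway genes had 12 of 15 above 0 (median 0.34), at 0.61 and 0.16, and immediate early genes 18 of 20 (median 0.22), at 0.41 and 0.11. Ccl3, a chemokine for monocytes and neutrophils, ran from 1817 to 3915 CPM (median 2323) with minP1 and from 1274 to 2347 CPM (median 1461) without it, a change of 0.68. Cd14 ran from 1866 to 2779 CPM (median 2097) and from 1302 to 2325 CPM (median 1640), a change of 0.34, while Il1a differed by 1.15, Il1b by 0.28 and Cd274 by 0.46. Cd83 lay lower, at 62.0 to 170.3 CPM (median 94.4) with minP1 and 135.7 to 403.5 CPM (median 178.4) without it. With high-mitochondrial cells kept these changes were 0.25 for Ccl3, 0.17 for Cd14, 0.20 for Cd274 and -0.055 for Il1b, and the NF-kB median was 0.05. With each cell weighted equally Ccl3 differed by 0.30, and the medians were 0.05 for NF-kB, 0.17 for TLR4 and 0.06 for immediate early genes.

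Markers of neutrophils and of other myeloid cells moved with these values. Neutrophil markers had 10 of 10 above 0, with summed levels of 16503 to 29076 CPM with minP1 and 8024 to 23463 CPM without it. S100a8, S100a9, Mmp9, Cxcr2, Csf3r and Retnlg are in both these markers and the granule list, so the counts are not separate. Macrophage markers had 2 of 12 above 0, at 872 to 3313 CPM and 1793 to 2464 CPM, and monocyte markers 2 of 8, at 2593 to 4752 CPM and 3681 to 4468 CPM. MHC class II genes had 1 of 11 above 0, with a median of -0.81, and complement genes 3 of 16, with a median of -0.42. The macrophage marker median was -0.56 and became 0.41 with high-mitochondrial cells kept and 0.35 at a Leiden resolution of 0.5. Their part in the neutrophil values was not tested.

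Among T cells, Cd4, the coreceptor of helper and regulatory T cells, lay higher in mice given minP1. It ran from 104 to 171 CPM (median 126) with minP1 and from 57.4 to 110 CPM (median 77.3) without it, and the groups did not overlap within either stratum. The change was 0.68 (SE 0.15, 95% interval 0.38 to 0.99), 0.58 without antibody and 0.79 with it, and it did not pass (edgeR adjusted p 0.816; DESeq2 adjusted p 0.051). Cd8a, the coreceptor of killer T cells, ran from 218 to 497 CPM (median 366) and from 422 to 593 CPM (median 450), a change of -0.40. Fewer CD8 T cells in the class and less Cd8a per cell cannot be told apart in this sum, and within the CD8 cluster Cd8a differed by -0.47. That cluster held 10 to 35 cells per mouse, and its change in Cd8a was -0.16 without antibody and -0.77 with it. Foxp3, which defines regulatory T cells, differed by 0.15 and Pdcd1 by -0.12 in T cells.

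Arhgef6, an exchange factor for Rac, ran from 78.2 to 114 CPM (median 103) in T cells with minP1 and from 47.0 to 81.0 CPM (median 60.0) without it, a change of 0.72. Vamp4, of vesicle transport, ran from 46.0 to 76.7 CPM (median 54.3) and from 21.1 to 40.1 CPM (median 34.5), with all 8 mice above the other 6 and a change of 0.84. Epsti1, an interferon-stimulated gene, lay lower, at 76.1 to 164 CPM (median 90.7) against 124 to 209 CPM (median 152). Its change of -0.64 was -0.64 without antibody and -0.63 with it, and did not pass (edgeR adjusted p 1.00; DESeq2 adjusted p 0.131). In regulatory T cells Epsti1 ran from 51.8 to 157 CPM (median 98.9) and from 121 to 241 CPM (median 195), a change of -0.91. Ifi44, another interferon-stimulated gene, differed by -1.58 in T cells (-0.72 with each cell weighted equally), and the top cell of a mouse held a median of 51.5% of that mouse's reads of it. The change of Arhgef6 was 0.37 under that weighting.

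CD8 T cells numbered 10 to 35 per mouse. In them Mrps26, of the mitochondrial ribosome, ran from 88.2 to 138 CPM (median 103) with minP1 and from 29.1 to 60.4 CPM (median 41.2) without it. The change was 1.35 (SE 0.28, adjusted p 0.879 by edgeR and 0.010 by DESeq2). The top cell of a mouse held a median of 39.2% of that mouse's Mrps26 reads. The NR4A receptors, which T cells switch on after antigen contact, lay lower: Nr4a2 ran from 312.8 to 760 CPM (median 659) and from 623 to 1768 CPM (median 974), a change of -0.71. Nr4a3 ran from 147 to 278 CPM (median 212) and from 210 to 481 CPM (median 399), a change of -0.74. Neither passed the test by edgeR. Gzmb, the granule protease granzyme B, differed by 0.38 (SE 0.26) and by -0.016 without cells of high doublet score, Pdcd1 by 0.05 (SE 0.22) and Ifng by -0.32 in CD8 T cells. Checkpoint genes had 5 of 13 above 0 there (median -0.09).

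Regulatory T cells, 30 to 62 per mouse, had Cd69, an early activation and retention marker, at 624 to 1128 CPM (median 771) with minP1 and 339 to 737 CPM (median 516) without it, a change of 0.62 (SE 0.16). Sdcbp2, a scaffold protein, differed by 1.39, and Hspd1, the mitochondrial chaperone, by -0.82. Foxp3 differed by 0.19 (SE 0.12) in regulatory T cells, and 9 of 16 genes of the regulatory programme lay above 0 (median 0.10). Immediate early genes had 18 of 20 above 0 in regulatory T cells (3 above and 1 below at an unadjusted p under 0.05, median 0.32), 17 of 20 in all T cells (median 0.15) and 6 of 20 in CD8 T cells (median -0.11). In regulatory T cells that median was 0.49 without antibody and 0.03 with it.

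The killing genes of NK cells lay at or slightly below 0. Gzmb ran from 2718 to 4597 CPM (median 3450) with minP1 and from 3201 to 4953 CPM (median 4340) without it, a change of -0.22. Prf1, which encodes perforin, differed by -0.10 and Ifng by -0.08, and 7 of 15 cytotoxic genes lay above 0 (median -0.01). Cd96, an inhibitory receptor of NK cells, ran from 56.1 to 107 CPM (median 80.3) and from 111 to 134 CPM (median 125), with all 8 mice below the other 6 and a change of -0.55 (SE 0.16, edgeR adjusted p 0.999). Fam32a, a nuclear protein, ran from 65.7 to 121 CPM (median 86.6) and from 31.1 to 63.7 CPM (median 53.1), with all 8 above and a change of 0.77. Ormdl3, a brake on sphingolipid synthesis, differed by 1.15 (0.72 at a Leiden resolution of 0.5), Ago1, of small RNA silencing, by 1.16, and Gsto1, a glutathione transferase, by -1.27.

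**Figure D2:**
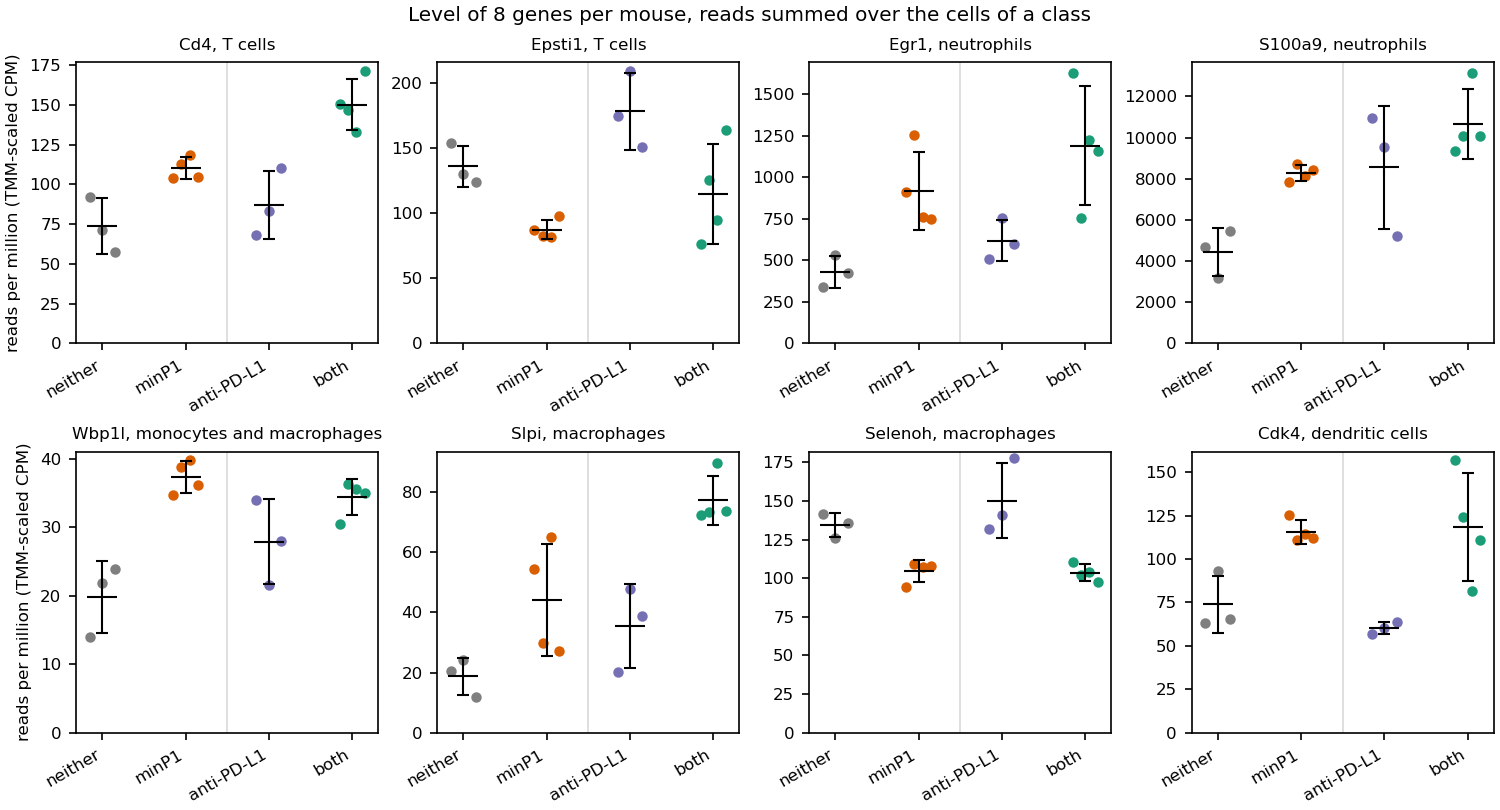
TMM-scaled CPM of 8 gene and class pairs in each mouse, by group, with the mean ± SD of each group. Within each stratum the mice given minP1 lie above those not given it for Cd4 in T cells and Cdk4 in dendritic cells, and for Selenoh in macrophages all 8 lie below the other 6. Genes picked for a small p tend to part the mice in this way.

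Type I interferon-stimulated genes, which virus-sensing and interferon receptors switch on, are taken by class and stratum, since their signs were not the same in all. In T cells 1 of 27 lay above 0, with 5 below it at an unadjusted p under 0.05 and a median of -0.49 (-0.20 without antibody and -0.59 with it), beside 49.5% of all genes above 0 and a median of 0.00. The T cell median was -0.21 at a Leiden resolution of 0.5 and -0.30 without cells of high doublet score. In monocytes and macrophages 2 of 27 lay above 0 (4 below at that p, median -0.21), and in NK cells 7 of 24 (1 below, median -0.25), where the median was 0.17 without antibody. Dendritic cells had 7 of 27 above 0 (5 below, median -0.49), a median that became 0.05 without cells of high doublet score. Neutrophils had 14 of 27 above 0 (median 0.01) and regulatory T cells 13 of 27 (median -0.10). None of these genes passed adjustment by edgeR, and whether the classes differed was not tested.

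The summed level of the 27 interferon-stimulated genes overlapped between mice given and not given minP1. In T cells it ran from 870 to 1482 CPM with minP1 and from 1143 to 1854 CPM without it. In monocytes and macrophages it ran from 1531 to 2982 and from 2143 to 2958 CPM. Among single members, Isg20, a nuclease, differed by -0.64 in monocytes and macrophages, at -1.29 without antibody and 0.05 with it, and Xaf1, a proapoptotic factor, by -0.28. Rtp4, a chaperone of receptors, differed by -1.29 in NK cells, where the top cell of a mouse held a median of 44.1% of that mouse's Rtp4 reads. Oasl1, a translational regulator of the interferon response, differed by -0.85 in dendritic cells. Ifit3 differed by -2.04 in dendritic cells, where the top cell of a mouse held a median of 57.3% of that mouse's Ifit3 reads. Without cells of high doublet score the changes were -0.29 for Isg20, -0.46 for Oasl1 and -3.10 for Ifit3.

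**Figure D3:**
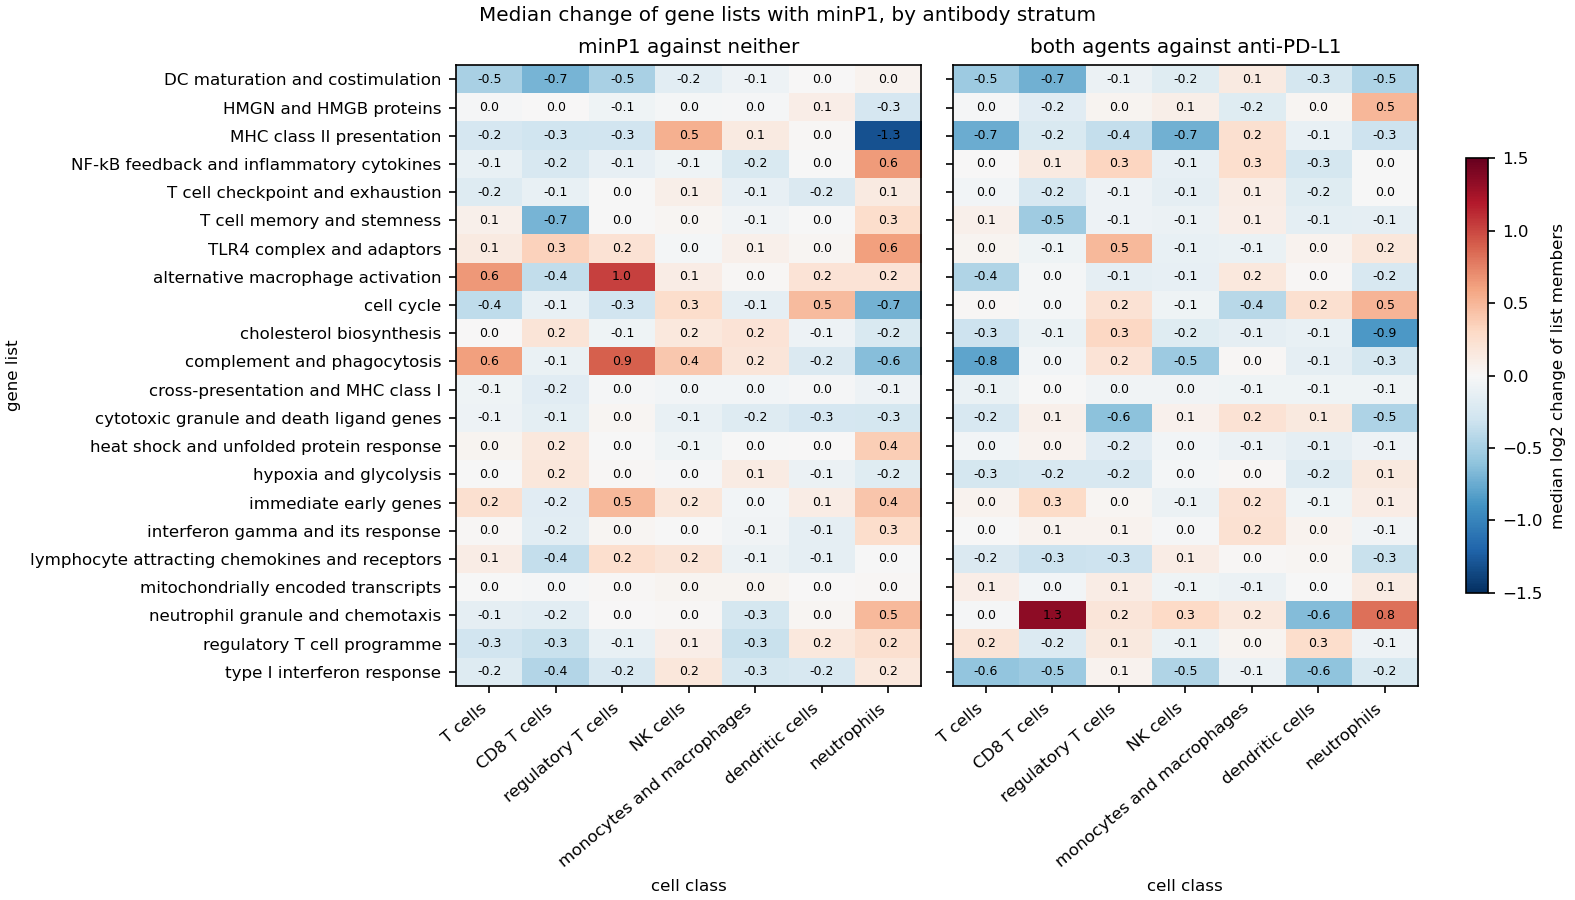
Median log2 change with minP1 of 22 gene lists (rows) in 7 classes of cells (columns), given separately for the stratum without antibody and the stratum with it; colour is the median over the list's genes tested. Type I interferon genes lie below 0 in T cells in both strata (-0.20 and -0.59), and cell cycle genes lie below 0 in monocytes and macrophages (-0.14 and -0.41) and above 0 in dendritic cells (0.48 and 0.24).

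Over all CD45+ cells, where shares of cell types and levels per cell add up, the gene changes were small. Pecam1, an adhesion molecule of endothelium and leukocytes, ran from 38.4 to 49.0 CPM (median 43.7) with minP1 and from 24.1 to 38.4 CPM (median 33.9) without it, a change of 0.41. Wbp1l ran from 30.3 to 36.4 CPM (median 32.8) and from 20.3 to 31.3 CPM (median 26.1), a change of 0.37, at 0.55 without antibody and 0.19 with it. Cd38, an ectoenzyme that consumes NAD, differed by 0.55, Cyth1, an exchange factor for ARF proteins, by 0.30, Tnrc18 by 0.28 and Soat1, which esterifies cholesterol, by 0.26. Among genes that lay lower, Nfat5, of the osmotic stress response, differed by -0.40, Xpa, of DNA repair, by -0.31, Exosc3, of the RNA exosome, by -0.29 and S100a4, a calcium-binding protein, by -0.28. Each of these had an edgeR adjusted p of 0.758. With each cell weighted equally the changes were 0.24 for Wbp1l, 0.15 for Tnrc18, 0.076 for Soat1 and -0.18 for Exosc3, and without cells of high doublet score 0.48 for Cyth1 and -0.60 for Xpa.

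The matrix gene Ogn, which encodes a small proteoglycan, lay lowest among the named genes of all CD45+ cells. It ran from 17.9 to 61.4 CPM (median 23.5) with minP1 and from 22.0 to 138 CPM (median 79.9) without it, a change of -1.37 that was -2.22 without antibody and -0.44 with it. The top cell of a mouse held a median of 38.6% of that mouse's Ogn reads. Fibroblast markers had 1 of 7 above 0 over all CD45+ cells (3 below at an unadjusted p under 0.05, median -0.74), with summed levels of 180 to 519 CPM with minP1 and 191 to 801 CPM without it. These genes belong to the Col1a2, Sparc and Mgp cluster, whose share is given above. In immune cells alone the summed fibroblast markers were 7.98 to 18.8 CPM and 8.02 to 24.4 CPM.

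With the matrix and tumour clusters left out, immune cells gave changes of 0.37 for Wbp1l, 0.25 for Ugp2, which makes UDP-glucose, and 0.30 for Soat1. Rbm3, a cold-inducible RNA-binding protein, differed by -0.19 and Penk, which encodes the opioid precursor proenkephalin, by -1.28. Arg1 differed by 0.83 and Nos2, the inducible nitric oxide synthase, by 0.98 in immune cells, while macrophage markers had 12 of 12 above 0 with summed levels of 2036 to 7025 CPM with minP1 and 3063 to 5039 CPM without it. Complement genes had 15 of 17 above 0 (median 0.18), hypoxia genes 17 of 18 (median 0.09) and genes of alternative macrophage activation 11 of 13 (median 0.11). Equal weight for each cell gave changes in immune cells of 0.24 for Wbp1l, 0.086 for Soat1, 0.42 for Arg1 and 0.30 for Nos2, and medians of 0.02 for alternative activation and -0.02 for hypoxia genes. The HMGN and HMGB genes had 1 of 7 above 0 in immune cells (median -0.11). In a sum over cells, more macrophages and more RNA per macrophage cannot be told apart.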

How the data were processed

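Per the labels' protocols, CD45+ cells were marked by hashtag antibodies and sequenced on the BD Rhapsody whole-transcriptome system. Per the submitters' processing notes and design text, the authors used cutadapt 2.10, Bowtie2 2.3.4.1 on mm10 and Seurat 2.3.4. The authors deposited read counts, as whole numbers, for 22836 genes and 8262 barcodes. Only 18.0% of nonzero entries are 1, so the values are those of reads not collapsed to molecules. Barcodes named doublets (141) or without a hashtag (6) were left out, and 383 of 8115 exceeded 25% of reads in 36 mitochondrial genes, which left 7732 against 7613 stated in the labels under another filter. Remaining doublets were scored but kept.

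Cells were clustered with scanpy 1.11.5 (2000 variable genes, 30 components, 20 neighbours, Leiden resolution 1.0, seed 0). A cluster took a cell type's name with at least 3 markers of that type among its top 50 genes by fold. No other type could have as many. The Il17a and Cd163l1 cluster, a tie between T cell types, was still counted with the T cells. Counts were summed per mouse and class, with at least 10 cells per mouse, and fitted with edgeR 4.0.16 (TMM, filterByExpr, quasi-likelihood, minP1 plus anti-PD-L1, two-sided, Benjamini-Hochberg adjustment over all genes tested, threshold 0.05). Shares, depth and the log2 ratio (0.5 added to each cell number) were tested by exact permutation of mice within strata. Alternatives included DESeq2 1.42.0 and limma 3.58.1. The alternative that kept high-mitochondrial cells clustered all cells anew. The fits were also tested on simulated data. Named genes were drawn from those of smallest p with at least 20 CPM. These were the 6 in each direction in all CD45+ cells and the 3 in each direction in other classes. Up to 2 members of each list described and a set of always computed genes of the treated axis were added. The text gives a choice of these genes and not all of them. In CD8 T cells Ublcp1, Ep400 and Mt1 had a smaller p than Nr4a3 and are left out. Other list members given as examples, and genes named because DESeq2 or another alternative passed them, were picked with their values in view. The comparison, its lists and its marker number were chosen with earlier results of these data known. Counts are reads, so small classes carry extra error, and each mouse was 1 replicate.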

Additional observations from a re-analysis of the deposited data

Results flagged for a closer look

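Within groups of 4 mice, the highest or lowest mouse was compared with the rest by Dixon's criterion at 95%. Of 332 groups tested, 24 values stood apart, and chance alone gives about 1 in 20. No value below was left out of the comparison, and the cause of none was tested.

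Among shares of cells, the Il17a and Cd163l1 cluster made up 3.28% in minP1_PDL1_3 (0.729 to 0.949% in the other 3 mice of its group). NK cells made up 12.75% in minP1_PDL1_1 (19.1 to 19.7% in the others). The T cell cluster made up 19.5% in minP1_1 (7.37 to 9.25%), and mature dendritic cells 0.546% in minP1_PDL1_4 (0.180 to 0.205%).

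In myeloid cells, Cd14 in monocytes and macrophages stood at 1444 CPM in minP1_1 (1267 to 1285) and at 1051 CPM in minP1_PDL1_1 (1187 to 1202), which are the high and low end of that receptor gene's range. Isg20 in the same class stood at 18.7 CPM in minP1_PDL1_1 (34.5 to 36.8). Dendritic cells of minP1_4 held 72.8 CPM of Cd80 (24.1 to 28.1) and 165 CPM of Cd40 (87.6 to 95.05), both costimulatory genes. Il12b in dendritic cells was 790.9 CPM in minP1_PDL1_2 (0 to 109.8), and Cd14 there was 760 CPM in minP1_PDL1_3 (373.7 to 436). Neutrophils held 2779 CPM of Cd14 in minP1_2 (1866 to 1962) and 3811 CPM of Ccl3 in minP1_PDL1_3 (2197 to 2378). Golga7 in monocytes was 105.9 CPM in minP1_2 (145.8 to 151.1). In macrophages Slpi was 89.7 CPM in minP1_PDL1_3 (72.5 to 73.8) and Selenoh 94.1 CPM in minP1_1 (107.1 to 109.4).

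In lymphocytes, Pdcd1 in T cells was 224.2 CPM in minP1_4 (136 to 148.7), Lrrk1 in NK cells 24.5 CPM in minP1_2 (36.4 to 37.6) and Nr4a2 in CD8 T cells 578.6 CPM in minP1_4 (736.3 to 755.4). Regulatory T cells of minP1_4 held 127.9 CPM of Sdcbp2 (179.8 to 184.1) and 4.62 CPM of Nek2 (0 to 0.742), and those of minP1_2 held 58.6 CPM of Aldh16a1 (9.68 to 13.4). Over all CD45+ cells Exosc3 was 44.5 CPM in minP1_1 (46.0 to 46.3), and Egr1 in immune cells was 330.2 CPM in minP1_PDL1_2 (384.6 to 393.9).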

How the results depend on the processing

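The number of genes passing for minP1 was 0 in every class by edgeR, and stayed 0 under RLE normalization, the mean of the within-stratum effects and, where it could be fitted, the removal of cells with high doublet scores, which left too few neutrophils. DESeq2 passed 12 genes in all CD45+ cells (11 for the difference between strata), 6 in immune cells, 6 in neutrophils, 4 in dendritic cells, 5 in monocytes and macrophages, 1 each in CD8 T cells, regulatory T cells and monocytes, and 7 in macrophages. Without a filter on low counts 1 gene passed in neutrophils (Egr1) and 4 in CD8 T cells (Ccl1, Areg, Penk and Nr4a2). With each cell weighted equally 1 passed in neutrophils (Igf1r), and without the antibody as covariate 1 passed in macrophages (Nap1l3). With 1 mouse left out, 0 genes passed in each class except neutrophils, with 0 to 1 (S100a8, without Control replicate 3). Of the 3 depth measures, 0 to 1 passed (without Control replicate 2), and the change in log2 CD8 to regulatory T cell ratio ran from -0.52 to -0.24.

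The 19 pairs of mice with the same replicate number had correlated deviations of -0.291 to 0.507 in all CD45+ cells (median 0.0968, 9 over 0.1), beside a median of -0.0323 over the 54 other pairs, and 4 mice correlated best with their own number. In immune cells the medians were -0.0193 and 0.00954. Since not every pair was over 0.1, the numbers were not taken as pairs. That bar is strict, and whether mice of the same number shared a run was not tested. A replicate block passed 0 genes in every class, with 1276 at an unadjusted p under 0.05 in all CD45+ cells.

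Of 3341 alternative values of 139 gene results, 10 changed sign by more than the SE. With each cell weighted equally these were Cd40 (0.49), Ccr7 (0.013) and Il12b (-0.90) in dendritic cells, and Cd14 (-0.026) and Cd86 (-0.088) in monocytes and macrophages. Without high doublet scores they were Tlr4 in dendritic cells (-0.60) and Gzmb in CD8 T cells (-0.016). With high-mitochondrial cells kept and all cells clustered anew it was Il1b in neutrophils (-0.055). Without 1 mouse they were Hmgn1 in immune cells (-0.17 to 0.045, highest without PDL1 replicate 1) and Il12b in dendritic cells (-0.80 to 0.82, lowest without minP1_PDL1 replicate 2). Of 402 alternative values of 23 shares, 0 changed sign by more than the SE. Smaller changes of sign were not counted. The cause of these shifts was not tested. Depth limits the small classes most, where 1 cell can hold most reads of a gene.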
